A study of Mus musculus with 28 samples.

Results

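The 37 genes described here encode subunits of glutamate and GABA receptors, or, in 1 case, a scaffold protein whose symbol fits the rule. They were found by symbol: of 17690 gene rows in the tables, 43 carry a name of the AMPA (Gria), kainate (Grik), NMDA (Grin1 to Grin3), delta (Grid), metabotropic glutamate (Grm), GABA-A (Gabr) or GABA-B (Gabbr) receptor families. A row was kept where at least 20 transcripts were counted over all wells, so the summed transcript number chose the members, and that number is given only as a description. Just inside the limit were Grm7 and Gabrg3 with 27.1 transcripts each and Gabrr2 with 29.1. Below it were Grm8 with 11, Grin2a with 9.0, Gabrq with 6.0, Grin3b with 2.0, and Gabrr1 and Grin2d with 1.0 each. The 36 members other than the scaffold protein comprise 21 glutamate receptor genes and 15 GABA receptor genes.

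Glutamate and GABA are the main excitatory and inhibitory transmitters of the brain. AMPA, kainate and NMDA receptors are cation channels gated by glutamate, GABA-A receptors are chloride channels built from alpha, beta and gamma or delta subunits, and the metabotropic receptors, Grm proteins for glutamate and the Gabbr1 and Gabbr2 pair for GABA, act through G proteins. In the subependymal zone (SEZ), the neurogenic niche beside the lateral ventricles, stem cells of astroglial character give rise to dividing progenitors and then to neuroblasts, which migrate to the olfactory bulb and become interneurons. Neuroblasts make GABA, and GABA is known to act back on the stem cells of this niche.

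Single cells of adult Bl/6 mice were sorted into 384-well plates and sequenced by SORT-seq with 75 bp paired reads, in 28 libraries of 96 wells that form 7 sorts with 4 libraries each. The Troy-GFP sort took GFP+ cells of Troy-GFPiresCreER mice, and the Ki67-RFP sort took RFP+ cells of Ki67tagRFP mice, so both depend on where the reporter gene (Troy, or Ki67 of dividing cells) is active. The day-2 and day-60 sorts took tdTomato+ cells of Ki67iresCreER;Rosa-tdTomato mice 2 or 60 days after a single 5 mg dose of tamoxifen, a label that starts in cells expressing Ki67 and is kept by their progeny. The mixed day-60 sort held tdTomato+ cells of such mice from the SEZ or the olfactory bulb together with O4+ oligodendrocytes. The GLAST/EGF sort used an antibody to GLAST and/or labelled EGF, and the Prom1/CD24 sort used antibodies to both proteins, with no reporter named. Ages were 8 to 10 weeks in 5 sorts, 16 to 19 weeks at day 60 and 8 to 19 weeks in the mixed sort. How many animals a library pools is not in the labels, and 4 libraries of 96 wells fill 1 plate of 384 wells, so all p-values may measure only technical spread.

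In all, 1789 of 2688 wells passed as cells with at least 1000 transcripts, 11 to 89 per library, and the libraries held 43149 to 572793 transcripts. The Prom1/CD24 sort gave only 64 cells and is described without a test. Two-sided limma tests compared the libraries of a pair of sorts. Troy-GFP and GLAST/EGF libraries held 107.4 to 221.0 transcripts of 4 Y-linked genes and 0 to 4.0 of Xist, while every other library held none of the Y-linked genes and 9.1 to 376.2 of Xist, so a comparison across these sorts also compares sexes. Clustering without the receptor genes gave 629 astroglia-like cells (289 from day 60, 202 from Troy-GFP, 88 from GLAST/EGF), 170 neuroblast-like cells (119 from day 2, 43 from Ki67-RFP), 420 progenitor-like cells and 79 bulb neuron-like cells (74 from the mixed sort). A list of 28 astroglia markers summed to 58121 to 64849 transcripts per 1000000 (CPM) at day 60 and 50632 to 51718 in Troy-GFP, against 1344 to 5507 at day 2 and 2069 to 2892 in Ki67-RFP, where 26 and 25 of the 27 markers in the tables had a transcript (Mt3 was at 0 in both, and Agt in Ki67-RFP). A neuroblast list ran the other way, with 16070 to 18689 CPM at day 2, 12064 to 14436 in Ki67-RFP, 1781 to 2726 in Troy-GFP and 643 to 1199 at day 60. In sums over a library, fewer cells of a type and less RNA per cell cannot be told apart.

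Grin2c, Gabrg1 and Grik3 stand for the patterns described below, the first pair for the astroglia-rich sorts and the last for neuroblasts and bulb neurons, and the 250 bases before their start sites are shown to place them on the genome (RefSeq, GRCm38.p6, 5′ to 3′ on the strand of the gene). They are chr11:115267244-115267493 for Grin2c (minus strand), chr5:70842618-70842867 for Gabrg1 (minus strand) and chr4:125490446-125490695 for Grik3 (plus strand). Capitals mark matches to searched motifs on either strand.
Grin2c: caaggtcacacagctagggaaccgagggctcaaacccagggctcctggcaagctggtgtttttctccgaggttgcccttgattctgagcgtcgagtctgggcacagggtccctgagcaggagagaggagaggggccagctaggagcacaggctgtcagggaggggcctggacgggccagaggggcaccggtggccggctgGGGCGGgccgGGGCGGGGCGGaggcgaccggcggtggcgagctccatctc
Gabrg1: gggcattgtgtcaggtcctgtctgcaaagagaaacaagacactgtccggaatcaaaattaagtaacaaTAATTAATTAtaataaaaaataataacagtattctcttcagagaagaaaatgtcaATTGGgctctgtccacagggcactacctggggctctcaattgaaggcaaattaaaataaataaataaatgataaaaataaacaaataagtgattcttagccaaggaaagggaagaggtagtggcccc
Grik3: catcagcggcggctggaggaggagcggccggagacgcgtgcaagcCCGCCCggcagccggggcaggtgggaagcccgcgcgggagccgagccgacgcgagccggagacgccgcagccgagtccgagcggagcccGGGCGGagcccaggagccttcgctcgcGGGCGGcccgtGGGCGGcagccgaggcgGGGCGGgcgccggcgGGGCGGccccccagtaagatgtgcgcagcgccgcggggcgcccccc
The windows differ in base composition: 68.8% of the bases are G or C before Grin2c, 35.6% before Gabrg1 and 82% before Grik3, against a median of 52.4% over the 32851 windows of the reference table. The Grin2c and Grik3 windows hold copies of GGGCGG (the GC box), which 14 of the 23 members with a window and 32.7% of all windows hold. The Gabrg1 window holds the CCAAT box, found in 10 of 23 members and 33.8% of all windows, and TAATTA (a homeodomain core), found in this member alone and in 4.8% of all windows. Also searched on both strands were TATAAA (the TATA box, 2 of 23 members, 12.4% of windows), CAGCTG (an E-box, 0 of 23, 13%) and TTGGCA (an NFI recognition site, 1 of 23, 12.3%), and the last can overlap a CCAAT box read in reverse as ATTGG. A member can have more than 1 window and is counted if any of them holds the motif, while the share is over single windows. The member counts and the shares are thus not directly comparable. A match is a description of letters, and 14 members had no window in the table.

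Summed over the 37 members, receptor transcripts were most frequent in the astroglia-rich sorts and in the mixed sort. The sum was 3053 ± 309 CPM at day 60 (SD, n = 4 here and below) and 3048 ± 316 in the mixed sort, 2380 ± 226 in Troy-GFP and 1257 ± 193 in GLAST/EGF. It was 770 ± 183 CPM at day 2 and 621 ± 62.8 in Ki67-RFP, and 850 ± 137 in Prom1/CD24. The day-60 and mixed sorts had nearly the same sum but different members: GABA receptor genes averaged 1175 CPM at day 60 and 765 in the mixed sort, and glutamate receptor genes 1876 and 2280. For Gabbr1, Grm3, Grin2c, Gabrb1 and Gabrg1, every day-60 library was above every library of the other sorts. The share of all genes with such a separation was not counted, so this describes these members only. These are levels of single genes across sorts. No test compared levels between genes, and where genes are set side by side below, their levels are only described.

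Of the glutamate receptor genes, Gria2, Grin2c and Grm3 were higher in the astroglia-rich sorts than in the neurogenic sorts. Gria2, the AMPA subunit that limits calcium entry (chromosome 3, 80681450 to 80802835 on mm10), was present in every library. It measured 661, 858, 734 and 614 CPM in the 4 Troy-GFP libraries and 536, 561, 682 and 640 at day 60. The Ki67-RFP libraries had 217, 218, 189 and 253 CPM and the day-2 libraries 175, 320, 411 and 261. All Troy-GFP and day-60 libraries were thus above all Ki67-RFP and day-2 libraries. Gria2 was higher at day 60 than at day 2 by 1.28 ± 0.19 (log2 ± SE; limma adjusted p = 1e-05) and higher in Troy-GFP than in Ki67-RFP by 1.82 ± 0.13 (limma adjusted p = 3.3e-12).

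Grin2c, an NMDA receptor subunit (chromosome 11, 115249169 to 115267243), had 344, 380, 313 and 274 CPM in Troy-GFP and 428, 500, 404 and 390 at day 60. It was at 0, 0, 5.44 and 1.75 CPM in Ki67-RFP and at 3.96, 0, 30.02 and 7.11 at day 2. The groups were far apart, by 7.47 ± 0.56 on the log2 scale between Troy-GFP and Ki67-RFP (limma adjusted p = 1.1e-11) and by 6.02 ± 0.55 between day 60 and day 2 (limma adjusted p = 2.8e-08). Grm3, a metabotropic receptor that inhibits adenylyl cyclase (chromosome 5, 9485541 to 9725170), had 297, 361, 282 and 262 CPM in Troy-GFP and 388, 453, 437 and 415 at day 60. Its Ki67-RFP values were 2.02, 3.88, 0 and 5.25 CPM, and its day-2 values 19.9, 0, 88.4 and 3.55. Day-2 library 3 was the highest of these low libraries for both Grin2c and Grm3. Of the day-2 transcripts, 14.2 of 14.2 for Grin2c and 35.9 of 38.9 for Grm3 came from the 6 astroglia-like cells of that sort. Grm3 was higher in Troy-GFP by 6.77 ± 0.55 (limma adjusted p = 5.8e-11) and at day 60 by 5.27 ± 0.64 (limma adjusted p = 9.7e-07).

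Of the other NMDA subunits, Grin2b had 68.8, 65.8, 93.7 and 133 CPM at day 60 and 3.96, 0, 5.39 and 7.11 at day 2, a difference of 4.32 ± 0.56 (limma adjusted p = 2e-06). Between Troy-GFP (50.3 to 63.1 CPM) and Ki67-RFP (27.1 to 52.5 CPM) it was smaller, 0.79 ± 0.24 (limma adjusted p = 0.0054), and the libraries overlapped. The AMPA subunit Gria1 had 41.97, 34.99, 65.2 and 68.995 CPM at day 60, of which the 4 bulb neuron-like cells of that sort held 51.2% of the transcripts. Day 2 held 1 Gria1 transcript in all, which gives a ratio of 62 with a counting interval of 10.9 to 2474. Grik5, a kainate subunit, was higher at day 60 by 1.37 ± 0.36 (limma adjusted p = 0.0025), and the difference between Troy-GFP and Ki67-RFP, 0.22, did not pass (limma adjusted p = 0.47). Grin3a, an NMDA subunit that lowers calcium entry, was higher at day 60 by 1.16 ± 0.43 (limma adjusted p = 0.024). Without day-2 library 3 that difference was 0.81 (limma adjusted p = 0.14), and it also missed the threshold without TMM scaling (1.00, limma adjusted p = 0.05) and with library number as a block (1.05, limma adjusted p = 0.059). Between Troy-GFP and Ki67-RFP its difference, 0.69, did not pass (limma adjusted p = 0.08). Grik2, another kainate subunit, was tested in all comparisons and passed in none (0.07 at day 60 over day 2 and 0.26 in Troy-GFP over Ki67-RFP), with means of 30.3 to 36.4 CPM in the sorts from Troy-GFP to day 60 and 52.6 in the mixed sort.

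**Figure D1:**
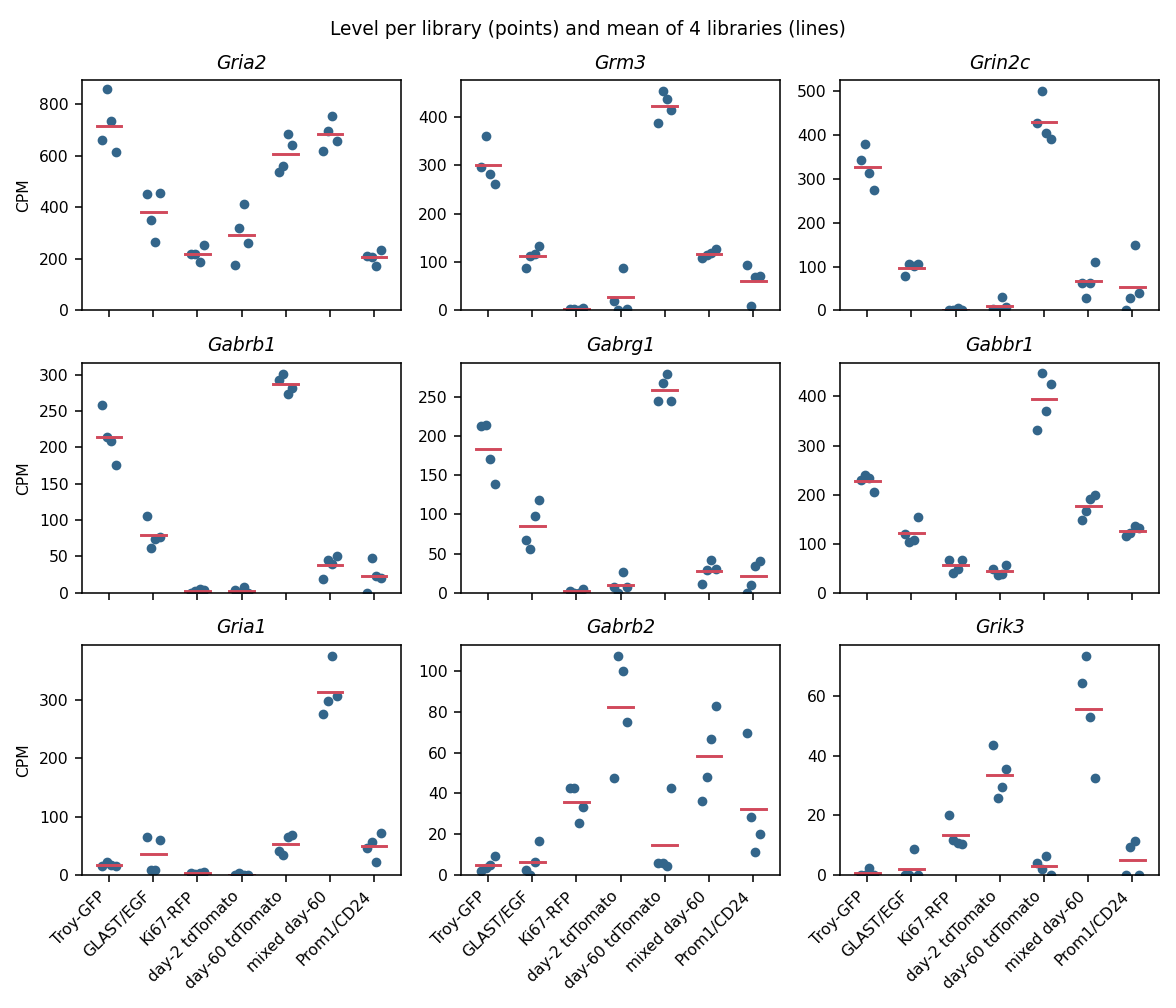
CPM of 9 members in every library (points) of the 7 sorts, with the mean of each sort as a red line and an axis of its own for each gene. Grm3, Grin2c, Gabrb1, Gabrg1 and Gabbr1 are highest at day 60, Gria1 is highest in the mixed sort, Gabrb2 is highest at day 2, and Grik3 is low in Troy-GFP and at day 60.

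GABA-A receptor genes divided by subunit. Gabrb1, a beta subunit (chromosome 5, 71658113 to 72149037), had 258, 214, 209 and 176 CPM in Troy-GFP and 292, 301, 273 and 282 at day 60. It was at 0, 1.94, 5.44 and 3.50 CPM in Ki67-RFP and at 3.96, 0, 8.09 and 0 at day 2. Its log2 difference was 6.49 ± 0.47 between day 60 and day 2 (limma adjusted p = 1.6e-09) and 6.28 ± 0.56 between Troy-GFP and Ki67-RFP (limma adjusted p = 2.8e-10). Gabrg1, a gamma subunit (chromosome 5, 70751047 to 70842617), whose upstream window is printed above, was high and low in the same sorts. It had 213, 215, 171 and 139 CPM in Troy-GFP, 245, 268, 280 and 244 at day 60, 2.02, 0, 0 and 5.25 in Ki67-RFP and 7.93, 0, 27.1 and 7.12 at day 2. The differences were 6.64 ± 0.59 (limma adjusted p = 2.7e-10) for Troy-GFP and 5.13 ± 0.53 (limma adjusted p = 1.3e-07) for day 60. The alpha subunit gene Gabra4 was also higher, by 2.58 ± 0.43 in Troy-GFP (limma adjusted p = 1.1e-05) and by 3.73 ± 0.57 at day 60 (limma adjusted p = 1.5e-05). It overlaps Gabrb1 at the 5′ ends in the annotation, only from 71658113 to 71658308. The sources used here do not state whether counting used strand, so reads within that stretch may not be told apart.

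The GABA-B receptor needs both of its subunits at the cell surface. Gabbr1 (chromosome 17, 37045966 to 37075067) had 229, 241, 233 and 206 CPM in Troy-GFP and 332, 448, 370 and 426 at day 60, against 66.7, 40.8, 48.8 and 66.5 in Ki67-RFP and 47.6, 36.9, 37.7 and 56.9 at day 2. It was higher at day 60 by 3.31 ± 0.23 (limma adjusted p = 1e-09) and in Troy-GFP by 2.16 ± 0.18 (limma adjusted p = 6.3e-11). Gabbr2 had 33.5, 74.1, 70.2 and 80.7 CPM at day 60 and 29.5, 24.1, 33.6 and 16.1 in Troy-GFP, and no transcript in any Ki67-RFP, day-2 or Prom1/CD24 library. Set against a floor of 3 transcripts over the day-2 sort, Gabbr2 was at least 25.2-fold higher at day 60.

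Gabrb2, a beta subunit of GABA-A receptors, and Grik3, a kainate subunit, were lower in the astroglia-rich sorts. Gabrb2 had 47.6, 107, 100 and 74.7 CPM at day 2 and 42.6, 42.7, 25.3 and 33.3 in Ki67-RFP, against 1.84, 3.71, 4.79 and 9.22 in Troy-GFP and 5.90, 6.16, 4.25 and 42.5 at day 60. Day 60 did not overlap day 2, nor Troy-GFP Ki67-RFP, and library 4 was by far the highest of the day-60 sort. The log2 differences of Gabrb2 were -2.79 ± 0.52 at day 60 (limma adjusted p = 0.00011) and -2.67 ± 0.53 in Troy-GFP (limma adjusted p = 0.0001). Of the day-60 transcripts of Gabrb2, 82.5% came from the 4 bulb neuron-like cells.

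Grik3 (chromosome 4, 125490700 to 125714173) had 43.6, 25.9, 29.7 and 35.6 CPM at day 2 and 3.94, 2.05, 6.38 and 0 at day 60, with no overlap. Its difference was -3.18 ± 0.54 (limma adjusted p = 4.8e-05), and in Troy-GFP 1 library of 4 held any Grik3 (2.39 CPM).

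Counted over all members, 17 were abundant enough to be tested between day 60 and day 2, of which 12 were higher and 4 lower at day 60. The share of all 7648 tested genes that passed (adjusted p under 0.05) was 67.6%, and the median log2 difference was 3.31 over the 17 members and 0.01 over all genes. Between Troy-GFP and Ki67-RFP, 13 members were tested, 8 higher and 2 lower, with 59.6% of 8396 genes passing and medians of 1.82 and 0.02. On the flow cell that Troy-GFP libraries 3 and 4 share with the Ki67-RFP libraries, 12 of 14 tested members passed, beside 48.9% of all genes. The sexes differ in the second comparison and the ages in the first, and the file names give a flow cell for the day-60 but not the day-2 libraries, so day-2 comparisons may also be across sequencing runs. Their part in the differences was not tested. The 20 and 24 members left untested were those with few transcripts in these sorts, so the counts do not speak for them. The filter on low values can be met by the 4 libraries of 1 sort alone. Gabbr2, with no day-2 transcript, and Gria1, with 1, were tested through their day-60 levels. The counts and the member medians thus follow in part from the filter, which applied in the other comparisons of sorts as well.

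**Figure D2:**
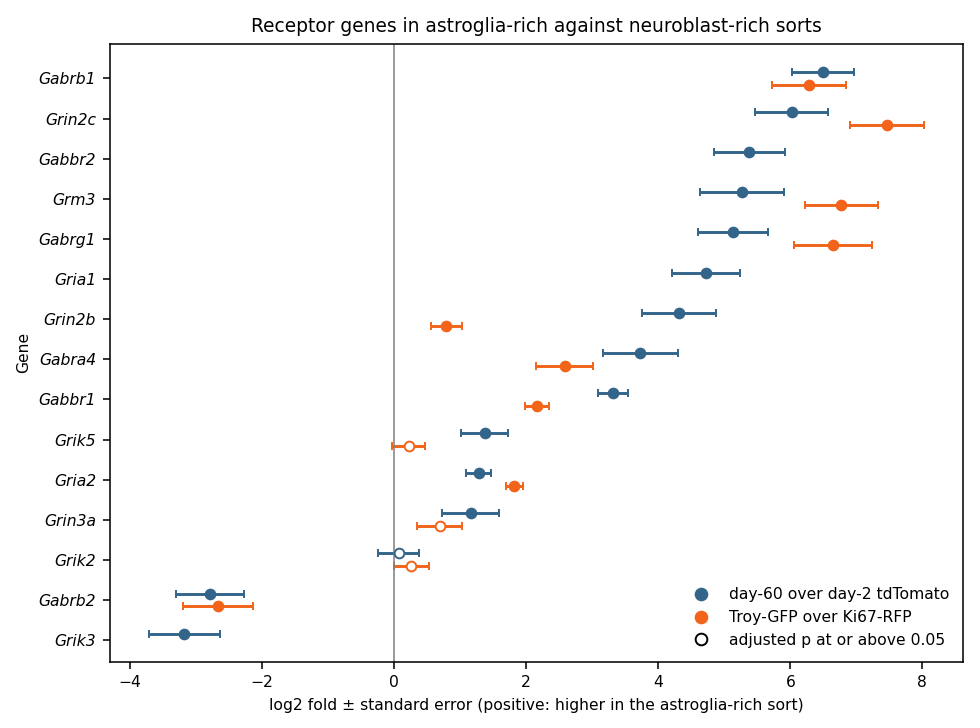
Log2 difference (points) with its standard error (bars) for 15 of the 17 members tested between day 60 and day 2 (blue) and, where tested, between Troy-GFP and Ki67-RFP (orange); open points have a limma adjusted p of 0.05 or more. Gria2, Gabbr1, Grm3, Grin2c, Gabrb1, Gabrg1, Grin2b and Gabra4 lie right of 0 with filled points in both comparisons, and Gabrb2 lies left of 0 in both.

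Day-2 and Ki67-RFP libraries are both rich in the neurogenic lineage. Of 9 members tested, 3 passed, a share near that of all 6952 genes (28.5%). Grik3 was higher at day 2 (25.9 to 43.6 CPM) than in Ki67-RFP (10.5 to 20.2 CPM) by 1.31 ± 0.38 (limma adjusted p = 0.012), and 87.2% of its day-2 transcripts lay in neuroblast-like cells. Gabrb2 was higher by 1.18 ± 0.26 (limma adjusted p = 0.0015). Grin2b was the 1 member that was lower at day 2, with a log2 difference of -2.85 ± 0.49 (limma adjusted p = 9.1e-05): 5.0 transcripts were counted there against 77.3 in Ki67-RFP, of which 66.2% lay in progenitor-like cells. Cells of the day-2 libraries were shallower, with medians of 3257 to 4190 transcripts per cell against 5890 to 6984.

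GLAST/EGF libraries, with 101 progenitor-like and 88 astroglia-like cells, stood between the astroglia-rich and the dividing sorts. Grin2c had 78.8, 106, 100 and 106 CPM there, Grm3 86.96, 112, 118 and 133, Gabrb1 106, 61.3, 73.9 and 76.2, and Gria2 453, 352, 267 and 453, each below every Troy-GFP library. Of 13 members tested against Troy-GFP, 7 were lower and 1 higher, beside 30.4% of 7818 genes. The log2 differences were -1.81 ± 0.16 for Grin2c (limma adjusted p = 1.7e-07), -1.52 ± 0.19 for Gabrb1 (limma adjusted p = 5.1e-06), -1.48 ± 0.16 for Grm3 (limma adjusted p = 1.4e-06) and -1.01 ± 0.15 for Gria2 (limma adjusted p = 4.5e-05). Gabrg1 (-1.19 ± 0.21), Gabra4 (-1.16 ± 0.28) and Gabbr1 (-0.98 ± 0.16) were lower as well. With each cell thinned to 1000 transcripts, 1351 genes in place of 7818 were tested. Among them were 6 members, of which Grm3 alone passed, the others lying at -0.31 to -0.60 (limma adjusted p = 0.067 to 0.63). The progenitor-like clusters held the deep cells (cluster medians of 6435 to 11468 transcripts against 4377 to 5564 in astroglia-like clusters), and the part of this in the result was not tested. Within each flow cell 6 members passed, beside 15.4% of 8604 genes in 1 and 13.5% of 7568 genes in the other. Gabra4 (limma adjusted p = 0.054 and 0.087) did not pass in either.

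Among astroglia-like cells of GLAST/EGF alone, pooled levels were 375 CPM of Grin2c (95% counting interval 315 to 444), 350 of Grm3 (293 to 417) and 1212 of Gria2 (1100 to 1329). Troy-GFP astroglia-like cells had 482 (442 to 524), 436 (398 to 476) and 962 (905 to 1020), and only the intervals of Gria2 do not overlap. Cells are not replicates, so these intervals cover counting error only.

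The mixed day-60 sort brought in members that were scarce in the passing cells of the SEZ sorts. Against day 60, 26 members were tested, 16 of them higher and 6 lower in the mixed sort, beside 43.3% of 8152 genes. Members such as Grm2, with no transcript at day 60, met the filter on low values through the mixed sort alone, so the counts follow in part from it. Among AMPA subunits, Gria1 had 275, 297, 375 and 307 CPM in the mixed sort, all above the day-60 libraries, by 2.47 ± 0.21 (limma adjusted p = 1.3e-07). Gria4 had 147, 208, 140 and 106 CPM against 13.9, 2.05, 4.25 and 20.7 at day 60, a difference of 3.94 ± 0.60 (limma adjusted p = 5.8e-05). Gria3, an X-linked gene, had 94.2, 189, 58.2 and 67.3 CPM against 0, 16.4, 2.12 and 29.1, a difference of 3.68 ± 0.93 (limma adjusted p = 0.0041). Gria2 itself did not pass, with 620, 697, 755 and 656 CPM in the mixed sort and a difference of 0.05.

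Grin1, the subunit every NMDA receptor needs, had 51.3, 47.9, 71.3 and 21.6 CPM in the mixed sort and 3.94 to 12.5 at day 60 (log2 difference 2.51 ± 0.68, limma adjusted p = 0.0066). In the other sorts Grin1 was close to absent, with 2.0 transcripts in Troy-GFP, 1.0 each in GLAST/EGF and Ki67-RFP, and none at day 2 or in Prom1/CD24. The high Grin2c of Troy-GFP libraries thus stood beside almost no Grin1. Grin2b was higher in the mixed sort by 1.15 ± 0.25 (limma adjusted p = 0.0013), though not with cells thinned to 1000 transcripts (0.74, limma adjusted p = 0.12). Grin3a had 107, 246, 90.3 and 83.4 CPM against 21.6 to 41.4 at day 60, a difference of 1.70 ± 0.35 (limma adjusted p = 0.00078), and its transcripts in the mixed sort lay mainly outside the bulb neuron-like cells. Of the metabotropic genes, Grm2 had 32.1, 25.6, 36.9 and 34.6 CPM in the mixed sort and none at day 60, at least a 21.3-fold difference. Grm4, which acts at presynaptic endings, was higher by 3.80 ± 0.92 (limma adjusted p = 0.003). Grm5, which couples to phospholipase C, was higher by 2.30 ± 0.60 (limma adjusted p = 0.0049). It missed the threshold with library number as a block (0.94, limma adjusted p = 0.17).

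Of the GABA-A subunits, Gabra5 had 69.1, 83.2, 155 and 32.5 CPM in the mixed sort and 0, 2.05, 0 and 20.98 at day 60 (4.51 ± 1.08, limma adjusted p = 0.0027). Gabrb2 and Grik3, which were high at day 2, were also higher in the mixed sort than at day 60, by 2.32 ± 0.58 and 3.89 ± 0.73. Lower in the mixed sort were Gabbr2 (-3.88 ± 0.76), Gabrg1 (-3.51 ± 0.31), Gabrb1 (-3.11 ± 0.24), Grin2c (-2.87 ± 0.25), Grm3 (-1.96 ± 0.14) and Gabbr1 (-1.29 ± 0.15), with limma adjusted p from 1.5e-08 to 0.00058. All 6 were higher at day 60 than at day 2, but Gria2 and Gabra4 (-0.48, limma adjusted p = 0.18), also higher at day 60, did not pass here, and Grin2b was higher in the mixed sort. The astroglia markers summed to 8109 to 15375 CPM in the mixed sort.

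The day-2 sort took tdTomato+ cells after 2 days, whereas the mixed sort also held O4+ oligodendrocytes. Against day 2, 18 members were tested and 14 were higher in the mixed sort, none lower, beside 64.9% of 6930 genes. Here too members absent at day 2 were tested through the mixed sort alone, so the count follows in part from the filter. Grin2b was higher by 5.47 ± 0.58 (limma adjusted p = 2.6e-07) and Gria4 by 3.39 ± 0.46 (limma adjusted p = 5.5e-06). Gria3 and Grm4 had no transcript at day 2 and were at least 37.9-fold and at least 24-fold higher, and the ratio for Gria1, with 1 transcript at day 2, was 367 (counting interval 65.6 to 14527). Grm5 and Gabra5, also with 1 transcript each at day 2, had ratios of 87.4 (15.4 to 3482) and 96.1 (17 to 3824). Grm3 (3.31 ± 0.65), Grin2c (3.18 ± 0.68), Grin3a (2.88 ± 0.55), Gabbr1 (2.05 ± 0.23), Grik5 (1.42 ± 0.35) and Gria2 (1.33 ± 0.17) were higher as well, with limma adjusted p from 6.3e-07 to 0.002. Gabrb2 (-0.44, limma adjusted p = 0.19), Grik2 (0.50, limma adjusted p = 0.14) and Grik3 (0.73, limma adjusted p = 0.065) did not pass. The count rose when any 1 day-2 library was left out, to 22, 21, 20 and 21 members without libraries 1 to 4, with 24 to 26 members tested in place of 18. The filter on low values then asked for 1 library fewer, and 7165 to 7780 genes were tested, of which 60.9% to 62.4% passed. The comparisons of the mixed, day-60 and day-2 sorts share libraries, so their results are not independent of each other.

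By cell state, the members are given here as pooled levels with 95% counting intervals and no test. Astroglia-like cells had 500 CPM of Grin2c (476 to 525), 469 of Grm3 (446 to 493), 330 of Gabrb1 (310 to 350), 298 of Gabrg1 (279 to 317) and 386 of Gabbr1 (365 to 408). Neuroblast-like cells had no transcript of Grin2c, Grm3 or Gabbr2 (a floor of 5.16 CPM), 3.45 CPM of Gabrb1 and 1.72 of Gabrg1. They held 81.1 CPM of Grik3 (59.4 to 108) and 67.3 of Gabrb2 (47.7 to 91.7), which were at 0.309 and 4.02 CPM in astroglia-like cells. Gria2 was high in both classes, at 885 CPM (853 to 918) and 497 (441 to 558).

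Progenitor-like cells, which lie between these in the lineage, had 148 CPM of Gria2, 45.9 of Gabbr1, 36.4 of Grin3a, 35.9 of Grin2b, 18.1 of Gabrb2 and 15.5 of Grm3. Bulb neuron-like cells also held these genes, with 193 CPM of Gabrb2 (159 to 234) and 106 of Grik3. Their other levels included 1397 CPM of Gria2 (1300 to 1499), 849 of Gria1 (774 to 930), 635 of Grin2b (569 to 704), 259 of Grm5, 252 of Gabra5 and 155 of Grin1. Within the mixed sort these 74 cells held 96.2% of the Grm2, 96.1% of the Grin1, 95.5% of the Gabra5, 88.9% of the Grin2b and 81.1% of the Gria1 transcripts, but 53.8% of the Gria4 and 3.49% of the Grin3a transcripts.

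**Figure D3:**
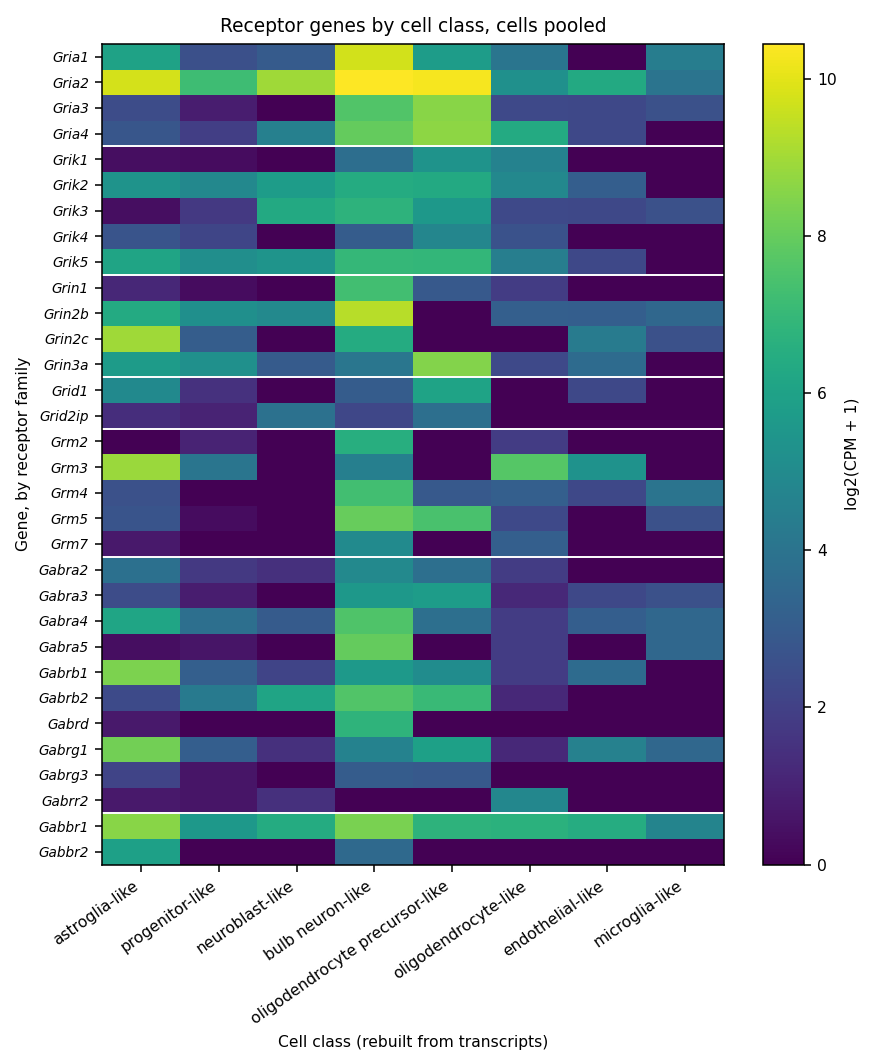
Pooled level of 32 of the 37 members (rows) in 8 cell classes (columns) as log2(CPM + 1), from all passing cells of a class. Grin2c, Grm3, Gabrb1 and Gabrg1 are bright (high) in the astroglia-like column, and Grm3 also in the oligodendrocyte-like column. Gabrb2 and Grik3 are bright in the neuroblast-like and bulb neuron-like columns.

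The classes were not uniform. Among astroglia-like clusters, the one led by Thbs4 and Gfap (108 cells) had 157 CPM of Grin2c, 212 of Grm3, 183 of Gria2, 188 of Gabbr1 and 116 of Gabrg1. The clusters led by Hopx and Crym (225 and 218 cells) had 595 and 603 CPM of Grin2c, 530 and 600 of Grm3, 1207 and 790 of Gria2, 444 and 420 of Gabbr1 and 323 and 355 of Gabrg1. Gabrb1 varied less, at 242 CPM in the Thbs4-led cluster and 337 and 371 in the other two. The cluster led by Agt (78 cells, 20 of them from the mixed sort) had 466 CPM of Gria1, where the other astroglia-like clusters had 7.7 to 27.2, and 208 of Grin3a, where they had 25.2 to 47.3. The 2 bulb neuron-like clusters differed as well. The Calb2-led cluster (63 cells) had 339 CPM of Gabra5, 774 of Grin2b, 267 of Gria3 and 52.6 of Gabrd, and the Th-led cluster (16 cells) had 19.8, 266, 0 and 259. The Th-led cells also had 1366 CPM of Gria1 and 239 of Grin2c, against 653 and 25.1 in the Calb2-led cells. A cluster of 88 cells led by G2/M genes, 53 of them from Ki67-RFP and 31 from day 2, took no class name and had 156 CPM of Gabrb2 and 396 of Gria2.

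Cells of the oligodendrocyte lineage came mostly from the mixed sort, with 17 of the 23 precursor-like and 125 of the 142 oligodendrocyte-like cells, and the levels here pool all sorts. The 23 precursor-like cells had 1272 CPM of Gria2, 408 of Gria4, 388 of Gria3, 368 of Grin3a (275 to 475) and 173 of Grm5, and no transcript of Grm3, Grin2c or Grin2b (a floor of 19.9 CPM). The 142 oligodendrocyte-like cells had 207 CPM of Grm3 (176 to 242), 82.4 of Gria4 and 36.6 of Gria2, and held 73.8% of the Grm3 transcripts of the mixed sort. Gabrr2, a rho subunit of GABA-A receptors, had 21.1 of its 22.1 transcripts of the mixed sort in these cells, at 27.5 CPM (17 to 41.9).

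Gabrg1, Gabra2, Gabra4 and Gabrb1 stand in that order on chromosome 5, from 70751047 to 72149037 (GENCODE M21, mm10), and had like profiles over the classes in part. In astroglia-like cells they were at 298, 13.6, 70.3 and 330 CPM, and in neuroblast-like cells at 1.72, 1.72, 6.90 and 3.45. Gabra4 departed from its neighbours in bulb neuron-like cells, at 188 CPM (154 to 228) beside 47.3 of Gabrb1 and 23.6 of Gabrg1.

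Within astroglia-like cells, day 60 was compared with Troy-GFP over the summed cells of each library. Of 14 members tested, Gabbr1 was higher at day 60 and Gria2 lower, beside 2.68% of 6310 genes. Gabbr1 had 424 to 517 CPM in the 4 day-60 libraries and 285 to 328 in the 4 Troy-GFP libraries (log2 difference 0.61 ± 0.13, limma adjusted p = 0.0035). Gria2 had 632 to 804 CPM at day 60 and 880 to 1047 in Troy-GFP (-0.45 ± 0.10, limma adjusted p = 0.0081). The class was made up of different clusters in the 2 sorts: the Thbs4-led cluster gave 55 of the 202 Troy-GFP cells and 30 of the 289 day-60 cells, and the Crym-led cluster 66 and 132, and the part of this in the calls was not tested. At a clustering resolution of 1.5, and with a minimum of 500 or 2000 transcripts per well, the Thbs4-led cluster had too few markers for the name and Gabbr1 did not pass (0.38 to 0.41, limma adjusted p = 0.14 to 0.17). Gria2 did not pass without day-60 library 2 (-0.40, limma adjusted p = 0.064) or within 1 flow cell (-0.39, limma adjusted p = 0.12). The sorts also differ in sex, age, tamoxifen and mouse line, which cannot be told apart here. Grm3 (0.30, limma adjusted p = 0.2) and Gabbr2 (0.87, limma adjusted p = 0.12) did not pass.

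Other genes of the transmitter systems were read from 3 lists. Of 22 genes for synthesis, release and uptake of glutamate and GABA, 15 were tested between day 60 and day 2, with 10 higher and 5 lower, beside 67.6% of all genes passing in either direction. Higher were Slc1a2 (4.83 ± 0.24) and Slc1a3 (4.80 ± 0.30), the glutamate transporters of astrocytes, and Slc6a11 (4.77 ± 0.56), a GABA transporter. Gad1 (-3.08 ± 0.21) and Gad2 (-2.23 ± 0.34), the enzymes that make GABA, were lower at day 60. Between Troy-GFP and Ki67-RFP, 11 of 16 tested were higher and 4 lower (59.6% of all genes passed), with Gad1 at -3.87 ± 0.48. Of 41 auxiliary subunits and scaffolds of the receptors, 5 of 15 tested were higher and 4 lower at day 60, no more than the share of all genes, with Shisa9, an AMPA receptor auxiliary protein, at 4.04 ± 0.52 and Cacng5 and Neto2, auxiliary subunits of AMPA and of kainate receptors, at -3.24 ± 0.47 and -2.59 ± 0.49. In the mixed sort against day 60, 13 of 23 tested were higher and none lower (43.3% of all genes passed), led by Grip2 at 5.44 ± 0.65. Of 6 genes of chloride transport, which sets the direction of GABA-A currents, 3 of 5 tested were higher in the mixed sort than at day 60 and 1 lower, with Slc12a2 at 3.02 ± 0.26 and Slc12a5 at 2.47 ± 0.49.

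Over the 6 comparisons of sorts, 25 of the 37 members passed at least once, beside 80.1% of the 9583 genes tested at least once. Grik2 was tested without passing, and 11 members (among them Gabra2, Gabra3, Gabrd, Gabrg3, Gabrr2, Grid1, Grik1, Grik4 and Grm7) had too few transcripts in any pair of sorts to be tested. Among the untested, the delta receptor gene Grid1 was at 30.3 CPM (24.6 to 36.9) in astroglia-like cells, and Gabrd, a delta subunit of GABA-A receptors, had 58.4 transcripts in the mixed sort, of which 98.3% lay in bulb neuron-like cells.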

How the data were processed

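Each table gives, per well and gene, what the authors deposited: estimated transcript numbers, whole counts of random barcodes corrected by them for collisions among 256 barcodes (found from the values: 4800995 of 4801006 values above 0 match that formula within 1e-06). The submitters' processing notes name BWA 0.6.2-r126 and mm10; strand and annotation are not given in the sources used here. Wells with at least 1000 gene transcripts were summed by library. Since the values are not whole counts, sums were tested with limma 3.58.1 (voom, TMM scaling, R 4.3.3; checked on simulated data) and Benjamini-Hochberg adjustment over all genes with about 10 transcripts in a median library in 4 or more libraries and at least 15 in all. Where a library was left out or 1 flow cell was used, the number of libraries asked for was that of the smaller group. CPM is transcripts per 1000000 gene transcripts. Clusters came from scanpy 1.11.5 (2000 variable genes, 30 components, 15 neighbours, Leiden resolution 1.0), without the receptor, cell cycle and ribosomal genes; a class needed 3 of its markers among the 50 leading genes. No doublet caller was run. Named genes are members that passed in a sort comparison, tested members that did not pass between astroglia-rich and neurogenic sorts, and up to 4 passing genes per direction and list; clusters and classes were described after their values were seen. Some members are counted but not otherwise reported here. Members and lists were chosen with earlier results of these data known. Alternatives were other minimums, no filter, no TMM, thinning, other resolutions, flow cells, a replicate block and each library left out.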

Additional observations from a re-analysis of the deposited data

Results flagged for a closer look

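Of 79 groups of 4 libraries with at least 20 transcripts of a reported member, 3 had 1 library far from the others, and chance gives about 1 in 20 such groups. Gabrb2 was at 42.5 CPM in library 4 of the day-60 sort, where the others had 4.25 to 6.16, and the 4 bulb neuron-like cells of that sort held 82.5% of its transcripts. Grik3 was at 20.2 CPM in Ki67-RFP library 1, where the other libraries of that sort had 10.5 to 11.7. Grin3a was at 246 CPM in mixed day-60 library 2, where the others had 83.4 to 107.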

How the results depend on the processing

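Of 1070 recomputed single-gene calls, 1040 kept their direction and side of the threshold, 30 lost the threshold and 0 reversed. Calls on members no longer tested under a setting are not among them. With thinning, which was not run within astroglia-like cells, 21 calls were kept and 6 lost the threshold, beside 75 calls in the main setting. Many of the settings leave out a single library and so share most libraries with the main one. Thinning to 1000 transcripts per cell leaves far fewer genes to test: 6 of 6 tested members passed between day 60 and day 2, 5 of 5 between Troy-GFP and Ki67-RFP, 7 of 9 between mixed and day 60, 2 of 2 between mixed and day 2, 1 of 6 between GLAST/EGF and Troy-GFP and 0 of 1 between day 2 and Ki67-RFP (limma). All genes passing fell in that order from 5168 to 1281, 5005 to 1171, 3528 to 1032, 4498 to 1035, 2379 to 282 and 1982 to 421. As shares of the genes tested these were 67.6%, 59.6%, 43.3%, 64.9%, 30.4% and 28.5% before thinning. With thinning they were 74.5%, 67.1%, 54.6%, 66.3%, 20.9% and 28.2%. Without a filter on low values, 21 members passed between Troy-GFP and Ki67-RFP and 29 between mixed and day 2. In the former, 59.6% of 8396 genes passed with the filter and 42.5% of 16159 without. In the latter, 4498 of all genes passed with the filter (64.9% of 6930) and 6752 without (42.9% of 15750). Leaving out 1 library gave 14 to 16 members between day 60 and day 2, 10 to 13 between Troy-GFP and Ki67-RFP, 21 to 23 between mixed and day 60, 13 to 22 between mixed and day 2 (22, 21, 20 and 21 without day-2 libraries 1 to 4), 8 between GLAST/EGF and Troy-GFP, 3 to 4 between day 2 and Ki67-RFP and 1 to 3 within astroglia-like cells. In astroglia-like cells 1 member passed with a minimum of 500 or 2000 transcripts, at resolution 1.5, on 1 flow cell, and without day-60 library 2. The cause was not tested. All genes passing there numbered 169, but 73 to 79 under the first 3 of these and 110 on 1 flow cell. Between GLAST/EGF and Troy-GFP, 1024 of 7568 and 1328 of 8604 genes passed within the flow cells. The median of all genes moved by -0.16 without TMM and 0.19 with thinning between day 60 and day 2.

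With library number as a replicate block, 15 members passed between day 60 and day 2, 10 between Troy-GFP and Ki67-RFP, 20 between mixed and day 60, 14 between mixed and day 2, 8 between GLAST/EGF and Troy-GFP, 3 between day 2 and Ki67-RFP and 2 within astroglia-like cells. The shares of all genes passing were 66.4%, 58.7%, 41.4%, 63.2%, 27.8%, 28.6% and 3.41% in that order. Libraries of the same number did not vary together (correlations of -0.079 to 0.066 over 24 pairs), so the numbers only name libraries. Settings added after seeing the data left out groups of cells. Without the bulb neuron-like cells 14 of 15 tested members passed between day 60 and day 2, beside 68.5% of all genes. Without the cells led by intestinal genes 10 members passed between Troy-GFP and Ki67-RFP (57.5% of all genes). Without those cells 8 passed between GLAST/EGF and Troy-GFP (28.3% of all genes). Depth limits genes under about 10 transcripts per library, and 11 members could not be tested.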

Other observations

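A cluster of 34 cells, 24 from Troy-GFP and 10 from GLAST/EGF, was led by genes of the intestine such as Reg1 and Alpi and took no class name. Its receptor levels were 1116 CPM of Gria2, 462 of Grin2c, 438 of Grm3, 275 of Gabbr1, 245 of Gabrg1 and 230 of Gabrb1, with none of Gabrb2 or Grik3. The 6 astroglia-like cells of the day-2 sort had 1186 CPM of Grm3 (95% counting interval 833 to 1647), against 532 (496 to 570) in the 289 astroglia-like cells of day 60. Whole day-2 libraries had 19.9, 0, 88.4 and 3.55 CPM of Grm3, so this level rests mainly on library 3. The intervals cover counting error only, not the spread between cells or libraries. Astroglia-like cells of the mixed sort, 28 in number, had 1636 CPM of Gria2 (1430 to 1866), against 698 (656 to 741) at day 60, but 20 of the 28 lay in the Agt-led cluster, as did 34 of the 289 at day 60.

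In the Prom1/CD24 sort, with 64 cells and 44.3% to 56.8% of its transcripts from spike-in RNA, 25 members had a transcript. Grm3 was at 93.2, 9.41, 68.2 and 71.4 CPM there, and Gabbr1 at 116, 122.6, 136 and 132.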
